A study of Homo sapiens with 48 samples.

Results

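The serpins and the cystatins are the main families of protein inhibitors of serine proteases and of cysteine cathepsins, and their RNA was followed in PSN1 pancreatic cancer cells that had become resistant to Talazoparib. The members were taken by gene symbol alone: all symbols starting with SERPIN, all symbols made of CST and a number, and CSTA and CSTB. This gave 46 of the 20241 protein-coding genes in the deposited table, 34 serpins and 12 cystatins. Of these, 20 (15 serpins and 5 cystatins) were above the lower limit of the table in at least 3 libraries and were tested, 25 were listed at 0 in all 9 libraries, and SERPINI1 did not exceed 0.04 log2 CPM.

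Serpins fold into a strained state and trap a serine protease by a change of shape after it cuts their exposed loop, so that each molecule works only once. Clade A serpins are secreted and abundant in plasma, clade B serpins mostly stay inside the cell, and other clades act in the matrix, in coagulation and in complement. Some serpins have lost inhibitory activity and carry hormones or chaperone collagen. Cystatins bind reversibly in the active site of papain-like proteases such as cathepsins B, H, L and S, with the stefins inside cells and the other members mostly secreted.

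The series holds 48 samples, of which the 9 PSN1 libraries of the resistance experiment were analysed. PSN1 is a human pancreatic ductal adenocarcinoma line grown in RPMI medium with serum. The 3 groups of 3 replicates were untreated parental cells (labelled WT, Day 0), TalaR-M cells kept in 50 nM Talazoparib for 4 months, and TalaR-DF cells, the resistant cells cultured without drug after withdrawal. Talazoparib is an inhibitor of PARP enzymes, and both resistant groups come from cells raised under stepwise increasing drug. The paper reports that resistant PSN1 cells regained nearly the parental sensitivity in the weeks after drug withdrawal. The word resistant therefore names the origin of TalaR-DF cells here and not their state, which these libraries do not measure. The labels do not say whether replicates were separate cultures, so that p-values measure the spread between these libraries, which may be technical.

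Each value is a log2 CPM, the log2 of the reads of a gene relative to the size of its library, with a small prior count added and all values under 0 set to 0. A value of 0 therefore means at most 1 CPM, which was 6.97 to 14.54 reads depending on the library, out of 8387755 to 14973847 recovered reads. Groups were compared with limma over 12471 genes. A call required a change of at least 1 on the log2 scale in either direction together with an adjusted p (Benjamini-Hochberg) under 0.05. Both resistant groups were set against the same parental libraries, and fold changes against a group at 0 are lower bounds. Over the genes tested, the median log2 fold change was -0.09 for TalaR-M against parental, 0.01 for TalaR-DF against parental and -0.09 for TalaR-M against TalaR-DF. These medians became 0.01, -0.01 and 0.03 after scaling of the libraries by median ratio.

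Ductal epithelial markers were present, with 9 of 10 above the limit in all parental libraries, while CDH1 was at 0 in all 9 and KRT17 in all 6 resistant libraries. Their summed level was 1232 to 1298 CPM in parental, 1967, 5893 and 1812 in TalaR-M replicates 1, 2 and 3 and 1039 to 1176 in TalaR-DF cells, so that replicate 2 stood apart here too. Of the 5 hepatocyte markers, all were at 0 in parental and TalaR-DF libraries, and in TalaR-M only APOA1 read above it, in 1 library, with a summed level of 1.27 CPM. Leukocyte markers (6 genes, summed) gave 11.1 to 14.7 CPM in parental, 4.13 to 7.11 in TalaR-M and 1.18 to 2.56 in TalaR-DF libraries, with CD3E, CD79A, LYZ and CD68 at 0 throughout.

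The library of TalaR-M replicate 2 stood apart from replicates 1 and 3. Among the 14 members above 2 log2 CPM in every TalaR-M library, it tended to read higher for short transcripts and lower for long ones, with exceptions. CST3, with a transcript of 793 bases, was 2.08 log2 higher in it than the mean of the others, CST4 (749 bases) 1.62 higher and SERPINB6 (1315 bases) 1.52 higher, whereas SERPINB9 (4143 bases) was -1.54 relative to them and SERPINE2 (2226 bases) -0.85. SERPINA1 (3006 bases) and SERPINB1 (2476 bases) did not follow this, at 0.71 and 0.51 higher. Across these members, which come from 1 library, the deviation and log length gave a Pearson r of -0.766 and a Spearman rho of -0.802. Over 9381 genes of that level the same r was -0.662. In the parental and TalaR-DF libraries no member of the 14 deviated by more than 0.564. CST4 in TalaR-DF and CST7 in parental libraries were at or near the lower limit of the table, which restricts their deviations there. Values without this library are given where it changed a call or moved a printed fold change of a gene by over 1.5 times. The part of transcript length in those results was not tested. Many adjusted p-values also moved without this library, and only some of these are given. The 3 groups share 1 estimate of the spread, so this library also enters the SE and adjusted p of TalaR-DF against parental. For CST3 in that comparison the SE was 0.50 with it and 0.087 without it.

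**Figure D1:**
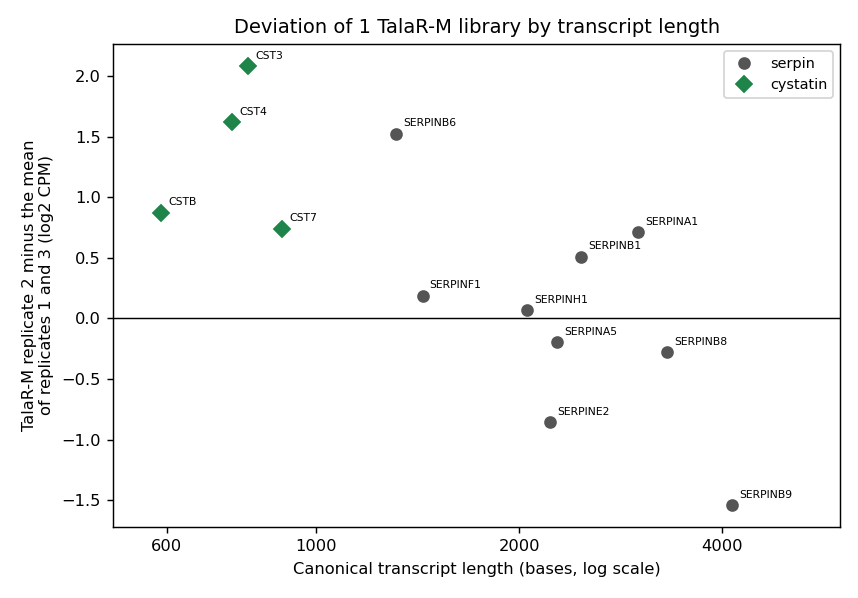
Each point is 1 of 13 serpin or cystatin genes above 2 log2 CPM in all TalaR-M libraries, with canonical transcript length (bases, log scale) on the x axis and the log2 CPM of TalaR-M replicate 2 minus the mean of replicates 1 and 3 on the y axis. The 4 cystatins, with transcripts of 588 to 891 bases, lie 0.74 to 2.08 above 0, and SERPINB9, the longest at 4143 bases, lies at -1.54.

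SERPINA1, SERPINA3, SERPINA5 and SERPINA6 lie in one cluster on chromosome 14 and were each called lower in both resistant groups. The 250 bases before their transcription starts (RefSeq, GRCh38.p14) are shown because these neighbouring genes fell together against parental cells. Only the first listed start of each gene was used, and any other starts were not examined. Capitals mark matches, on either strand, to 2 of 4 motifs searched in all 35116 promoters of the table: the Snail-type E-box CAGGTG, held by 17.5% of them, the AP-1 site TGANTCA (6.6%), the STAT site TTCNNNGAA (6.6%) and the heat shock element pair GAANNTTC (5.8%). The STAT and heat shock letters can overlap, but do not in these windows. The windows are chr14:94390636-94390885 (minus strand) for SERPINA1, chr14:94612141-94612390 (plus) for SERPINA3, chr14:94581176-94581425 (plus) for SERPINA5 and chr14:94323337-94323586 (minus) for SERPINA6.
SERPINA1: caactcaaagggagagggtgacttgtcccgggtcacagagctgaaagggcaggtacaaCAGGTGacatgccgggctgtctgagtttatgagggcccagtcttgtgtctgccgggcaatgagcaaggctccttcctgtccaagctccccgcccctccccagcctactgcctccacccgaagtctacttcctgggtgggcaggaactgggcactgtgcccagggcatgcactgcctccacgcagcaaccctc
SERPINA3: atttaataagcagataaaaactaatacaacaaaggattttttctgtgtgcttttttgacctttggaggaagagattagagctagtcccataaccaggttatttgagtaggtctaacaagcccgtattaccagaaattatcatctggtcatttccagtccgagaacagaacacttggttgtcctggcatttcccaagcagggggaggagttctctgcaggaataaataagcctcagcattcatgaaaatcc
SERPINA5: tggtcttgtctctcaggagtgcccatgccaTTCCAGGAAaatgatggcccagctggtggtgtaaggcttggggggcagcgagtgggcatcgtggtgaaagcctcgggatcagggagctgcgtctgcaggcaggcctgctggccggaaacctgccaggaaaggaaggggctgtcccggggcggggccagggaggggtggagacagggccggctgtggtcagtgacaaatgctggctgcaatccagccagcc
SERPINA6: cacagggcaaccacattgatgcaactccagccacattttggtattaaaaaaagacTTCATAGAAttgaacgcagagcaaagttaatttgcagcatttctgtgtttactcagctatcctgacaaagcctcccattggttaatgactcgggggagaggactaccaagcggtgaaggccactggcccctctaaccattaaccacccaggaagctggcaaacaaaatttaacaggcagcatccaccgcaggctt

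SERPINA1 held the E-box, SERPINA5 and SERPINA6 a STAT site each, and the SERPINA3 window none of these letters, so no motif of the 4 was in all windows. An entry was present for 12 of the 20 tested members, CST3, SERPINA1, SERPINA3, SERPINA5, SERPINA6, SERPINB1, SERPINB2, SERPINB6, SERPINB8, SERPINB9, SERPINE2 and SERPINH1. SERPINB1 and SERPINB8 also held the STAT letters, SERPINB2 and SERPINB8 the AP-1 letters, and SERPINH1 the heat shock letters. CST1, CST4, CST7, CSTB, SERPINF1, SERPINF2 and SERPING1 had no entry.

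Against parental cells, TalaR-M cells had 1 tested member called higher and 8 called lower, where 13.3% of all genes tested were called, 5.53% higher and 7.72% lower. TalaR-DF cells had 2 called higher and 9 lower against the same parental libraries, where 9.73% of all genes were called, 2.25% higher and 7.49% lower. After median-ratio scaling the latter split was 0 higher and 9 lower. The 3 parental values did not overlap with the 3 resistant values for 14 of 20 members in TalaR-M (49.8% of all genes) and for 19 of 20 in TalaR-DF (68.5%). The median log2 fold change of the tested members was -0.70 in TalaR-M (-0.65, with 1 higher and 8 lower, without replicate 2) and -0.90 in TalaR-DF. SERPING1 and SERPINB2 entered the test only through the group in which they were high and so had to differ, and the members not tested are not part of these counts and medians.

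**Figure D2:**
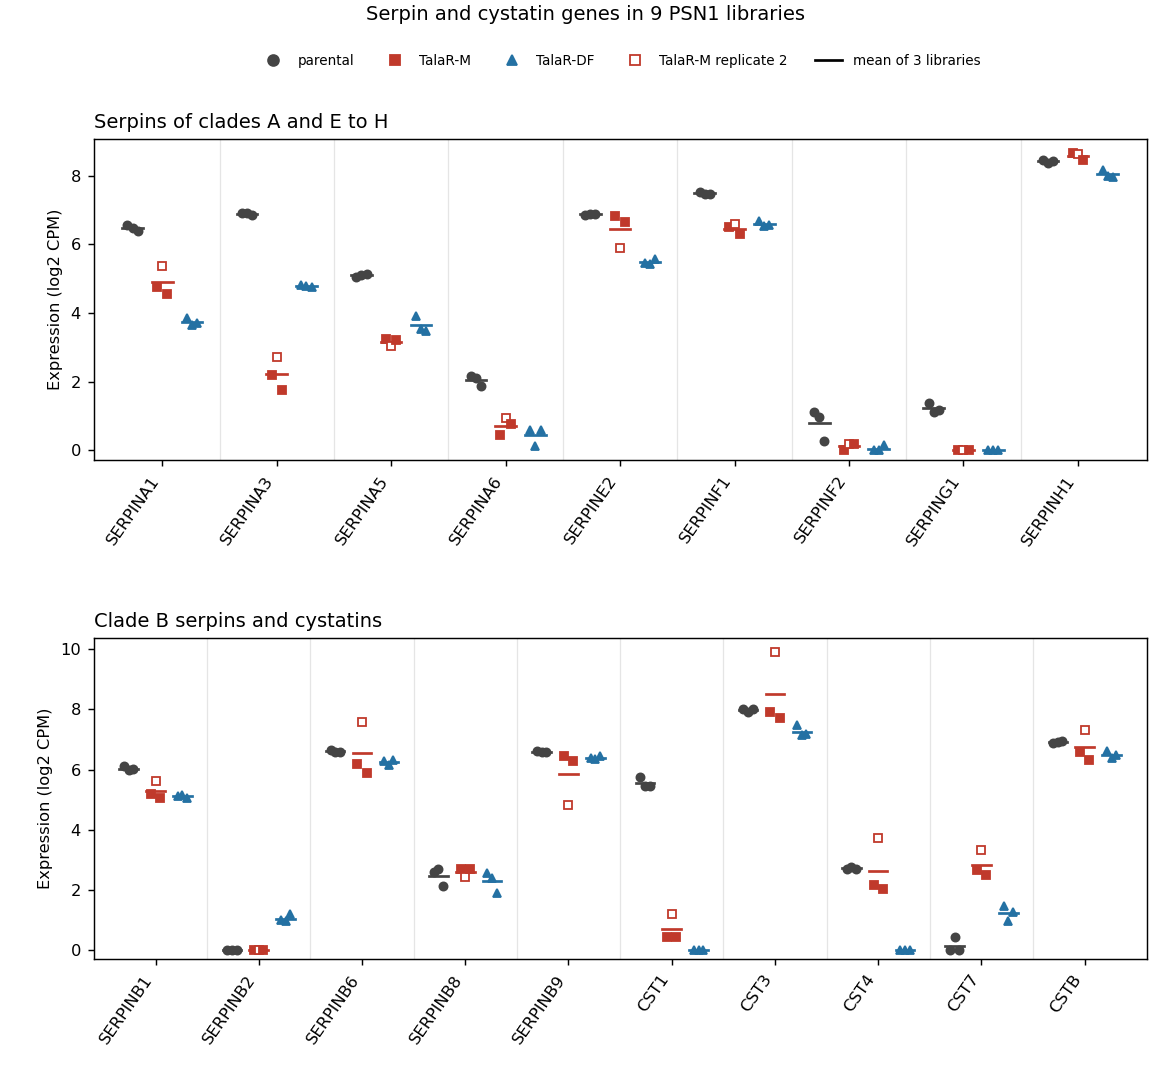
Expression (log2 CPM) of 19 tested serpin and cystatin genes in parental (circles), TalaR-M (squares, replicate 2 open) and TalaR-DF (triangles) libraries, 1 point per library and a bar at the mean of 3. The clade A serpins, SERPINF1 and CST1 lie lower in all 6 resistant libraries than in the 3 parental ones, and CST7 lies higher in them.

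SERPINA3, which encodes alpha-1-antichymotrypsin, an acute phase inhibitor of cathepsin G and mast cell chymase, was 6.90, 6.92 and 6.85 log2 CPM in the parental replicates, 2.18, 2.72 and 1.74 in TalaR-M and 4.82, 4.78 and 4.75 in TalaR-DF. The 3 groups did not overlap, with TalaR-M lowest and TalaR-DF between. TalaR-M cells were 25.6-fold below parental cells (log2 fold change -4.68, SE 0.23, limma adjusted p = 3.31e-06) and TalaR-DF cells 4.3-fold below them (log2 fold change -2.11, SE 0.23, adjusted p = 0.000396). TalaR-M was 5.95-fold below TalaR-DF (adjusted p = 0.000277), so the gene was higher in the cells without drug. The reads behind the TalaR-M values were 70, 49 and 46. The fibroblast markers (6 genes, 3 of them, LUM, PDGFRA and PDGFRB, above the limit in every library) had the same order in their summed level, 176 to 185 CPM in parental, 50.8, 23.8 and 47.9 in TalaR-M replicates 1, 2 and 3 and 73.9 to 81.7 in TalaR-DF, with THY1 and FAP at 0 throughout. Not all members had that order, since DCN was at 0 in parental and TalaR-DF libraries and read 1.73, 1.45 and 1.47 in TalaR-M, and PDGFRB read 3.62, 2.63 and 3.41 in TalaR-M and 3.02, 3.20 and 2.40 in TalaR-DF. Their part in the result was not tested. PSN1 is a cultured line, and bulk RNA cannot tell fewer of its cells with these transcripts from less RNA per cell.

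SERPINA1 encodes alpha-1-antitrypsin, the principal plasma inhibitor of neutrophil elastase. It read 6.58, 6.49 and 6.40 in parental, 4.76, 5.37 and 4.56 in TalaR-M and 3.85, 3.65 and 3.69 in TalaR-DF libraries, again without overlap, but with the drug-free cells lowest. It fell 3.01-fold in TalaR-M (log2 fold change -1.59, SE 0.21, adjusted p = 0.00103) and 6.77-fold in TalaR-DF (-2.76, SE 0.21, adjusted p = 5.25e-05). TalaR-M was above TalaR-DF by a log2 fold change of 1.17, which was called, but without TalaR-M replicate 2 the difference was 0.93 and under the fold threshold, and in a fit of these groups alone the adjusted p was 0.0804. Thus SERPINA1 and SERPINA3, in the same cluster, stood in opposite order between the resistant groups.

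SERPINA5, the protein C inhibitor, was 5.06, 5.12 and 5.13 in parental cells, 3.24, 3.03 and 3.21 in TalaR-M and 3.91, 3.52 and 3.49 in TalaR-DF. Both resistant groups were below parental cells in every library, with log2 fold changes of -1.94 (adjusted p = 6.24e-05) and -1.46 (adjusted p = 0.000416). Its annotated span overlaps that of SERPINA4, which was at 0 in all libraries, so reads in shared exons cannot be assigned to one of them. SERPINA6 encodes corticosteroid-binding globulin, a serpin without inhibitory activity, and read 2.17, 2.11 and 1.86 in parental, 0.43, 0.95 and 0.78 in TalaR-M and 0.60, 0.13 and 0.58 in TalaR-DF, on 47 to 65 reads in parental and 14 to 23 in resistant libraries. It was called lower in both (-1.33, adjusted p = 0.00165, and -1.61, adjusted p = 0.000712), the first not with a pseudocount of 1 CPM (-0.95).

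The cluster spans chr14:94280460-94624055 (hg38) and holds 9 members, of which the other 5, SERPINA4, SERPINA9, SERPINA10, SERPINA11 and SERPINA12, were at 0 in all libraries, as was SERPINA7, the thyroxine-binding globulin gene on another chromosome. Around it, the 20 nearest tested genes, 10 on each side, had a median log2 fold change of -0.07 in TalaR-M and 0.11 in TalaR-DF against parental, with 2 higher and 3 lower in TalaR-M and 0 higher and 3 lower in TalaR-DF. Over all genes tested, 5.53% were called higher and 7.72% lower in TalaR-M, and 2.25% and 7.49% in TalaR-DF. Most genes anywhere were thus not called, and these neighbours were not called less often than genes at large. The 4 tested serpins were each called lower.

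SERPINE2 encodes protease nexin 1, an inhibitor of thrombin and urokinase. It was 6.87, 6.90 and 6.90 in parental, 6.82, 5.88 and 6.65 in TalaR-M and 5.47, 5.44 and 5.56 in TalaR-DF libraries. The drug-free cells were called lower (2.63-fold, log2 fold change -1.40, SE 0.23, adjusted p = 0.00363), whereas TalaR-M gave -0.44 (SE 0.23, adjusted p = 0.197), and -0.15 without replicate 2 (adjusted p = 0.0799). The direct comparison gave TalaR-M 0.96 above TalaR-DF (adjusted p = 0.0307), just under the fold threshold, and 1.25 without TalaR-M replicate 2 (adjusted p = 7.29e-08), which was called, as it was under median-ratio scaling (1.12).

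SERPINF1, pigment epithelium-derived factor, a secreted serpin that does not inhibit proteases and is known for its effect on blood vessels, was 7.52, 7.47 and 7.46 in parental, 6.49, 6.59 and 6.31 in TalaR-M and 6.68, 6.53 and 6.56 in TalaR-DF. The decrease was close to the fold threshold on either side, with a log2 fold change of -1.02 in TalaR-M (adjusted p = 0.000537, called) and -0.89 in TalaR-DF (adjusted p = 0.00138, not called). The first became -0.94 without TalaR-M replicate 3 and -0.91 under median-ratio scaling and was then not called. Endothelial markers (5 genes, VWF at 0 throughout) summed to 28.9 to 32.1 CPM in parental, 5.91 to 10.3 in TalaR-M and 2.92 to 3.23 in TalaR-DF libraries, and their part in these results was not tested.

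SERPING1, the C1 inhibitor of complement and contact activation, was 1.37, 1.11 and 1.18 in parental libraries, on 29 to 37 reads, and 0 in all 6 resistant libraries, at least 2.33-fold lower. SERPINF2, alpha-2-antiplasmin, was 1.13, 0.96 and 0.28 in parental, 0, 0.18 and 0.19 in TalaR-M and 0, 0 and 0.14 in TalaR-DF. It was not called in either, with log2 fold changes of -0.66 (adjusted p = 0.0539, and 0.0172 without TalaR-M replicate 2) and -0.74 (adjusted p = 0.0426). SERPINH1 encodes the collagen chaperone of the endoplasmic reticulum and is not a protease inhibitor. It read 8.45, 8.38 and 8.42 in parental, 8.65, 8.62 and 8.46 in TalaR-M and 8.16, 7.98 and 7.97 in TalaR-DF, with log2 fold changes of 0.16 (SE 0.12) and -0.38 (SE 0.12) against parental, neither called. TalaR-M was above TalaR-DF without overlap (log2 fold change 0.54, adjusted p = 0.0245), under the fold threshold. SERPINC1 (antithrombin), SERPIND1 (heparin cofactor), SERPINE3 and SERPINI2 were at 0 in all libraries.

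**Figure D3:**
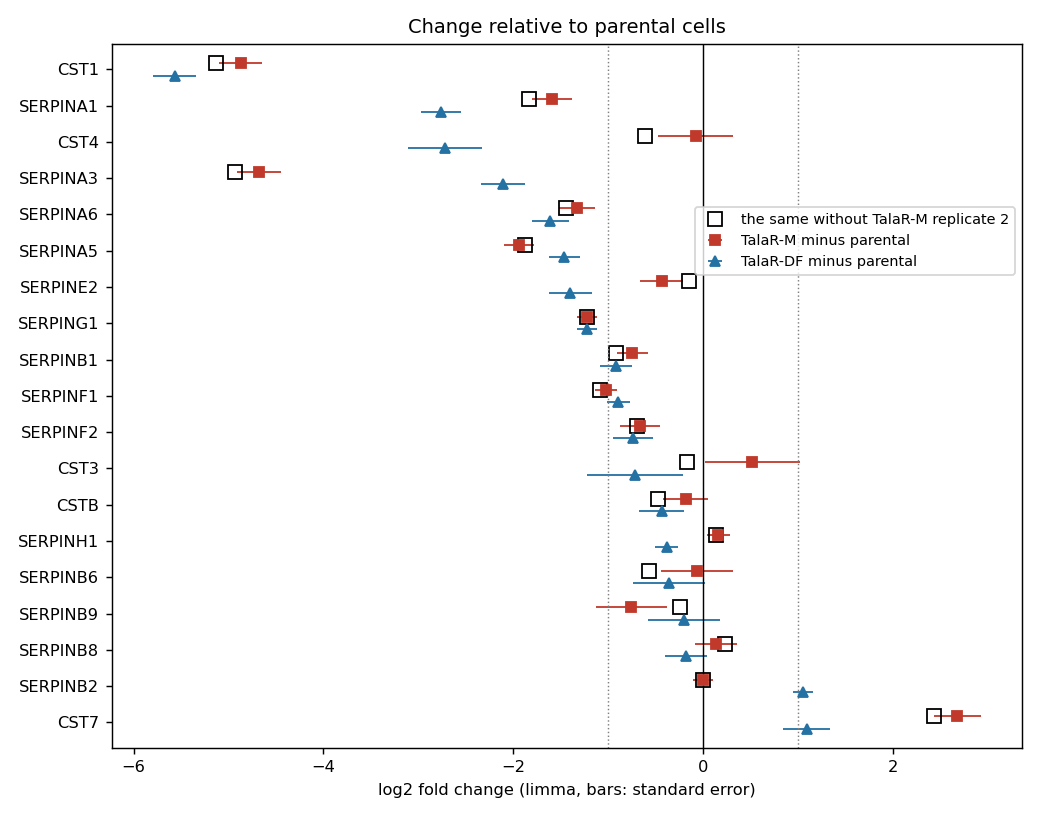
Log2 fold change (x axis) of 19 tested members against parental cells for TalaR-M (red squares) and TalaR-DF (blue triangles), with bars for the standard error from limma, and open squares for TalaR-M without replicate 2. Dotted lines mark a log2 fold change of 1 in either direction. CST1 and SERPINA3 lie farthest to the left in TalaR-M at -4.87 and -4.68, and the open squares of CST3, CST4 and SERPINB6 lie left of their red squares.

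The clade B serpins protect cells from their own granule and lysosomal proteases. Of 13 members 5 were tested, and 0 were called lower against parental cells in TalaR-M or TalaR-DF, where 7.72% and 7.49% of all genes were. With so few genes, 0 calls are near those shares and set the clade apart from nothing. SERPINB2, given below, was called higher in TalaR-DF, as the filter fixed that it differed. SERPINB1, an inhibitor of neutrophil elastase, came nearest to a lower call. It was 6.11, 5.98 and 6.01 in parental, 5.18, 5.63 and 5.05 in TalaR-M and 5.13, 5.15 and 5.07 in TalaR-DF, without overlap with parental cells, and its log2 fold changes of -0.74 (adjusted p = 0.0131) and -0.92 (adjusted p = 0.00586) did not reach the fold threshold. SERPINB6, an inhibitor of cathepsin G, was 6.66, 6.58 and 6.59 in parental, 6.19, 7.57 and 5.89 in TalaR-M and 6.28, 6.15 and 6.31 in TalaR-DF libraries, with log2 fold changes of -0.06 and -0.36. The first was -0.57 without TalaR-M replicate 2 (adjusted p = 0.000178) and changed sign under median-ratio scaling. SERPINB9, the inhibitor of granzyme B, was 6.62, 6.59 and 6.58 in parental, 6.44, 4.82 and 6.27 in TalaR-M and 6.39, 6.35 and 6.45 in TalaR-DF libraries, and its value against parental moved from -0.75 to -0.24 without that library. These 3 genes form a cluster on chromosome 6 (chr6:2832332-2972165, hg38).

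SERPINB8, an inhibitor of furin, was 2.60, 2.69 and 2.14 in parental, 2.71, 2.43 and 2.70 in TalaR-M and 2.58, 2.39 and 1.92 in TalaR-DF, with all groups overlapping. SERPINB2, an intracellular inhibitor of urokinase, was 0 in all parental and TalaR-M libraries and 1.00, 0.97 and 1.19 in TalaR-DF, on 28, 26 and 28 reads. TalaR-DF cells were at least 2.08-fold higher than either other group, given without a p because the filter fixed that it differed. The log2 difference was 0.99, under the fold threshold, without TalaR-DF replicate 3 and under median-ratio scaling. SERPINB2 and SERPINB8 lie in a cluster of 10 clade B genes on chromosome 18. The other 8 of the clade, SERPINB3, SERPINB4, SERPINB5, SERPINB7, SERPINB10, SERPINB11, SERPINB12 and SERPINB13, were at 0 in all libraries.

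Among the cystatins, CST1 fell the most. CST1 encodes cystatin SN, a secreted inhibitor of papain-like proteases first known from saliva. It was 5.77, 5.46 and 5.47 log2 CPM in parental libraries, 0.43, 1.22 and 0.44 in TalaR-M, on 20, 17 and 18 reads, and 0 in all TalaR-DF libraries. The parental and resistant libraries were far apart, and TalaR-M was just above the limit of the table. The log2 fold change was -4.87 in TalaR-M (29.2-fold lower, SE 0.23, adjusted p = 2.54e-06), and TalaR-DF was at least 47.4-fold lower than parental (adjusted p = 1.56e-06). TalaR-M was not called against TalaR-DF (log2 fold change 0.70, adjusted p = 0.0865, and 0.43 without replicate 2). With a pseudocount of 1 CPM it was called (1.40, adjusted p = 0.0012), but that setting takes values at the limit as 0 CPM. It thereby widens their distance from values just above the limit, so this call does not show a difference.

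CST4, which encodes cystatin S, was 2.69, 2.76 and 2.70 in parental, 2.16, 3.72 and 2.05 in TalaR-M and 0 in all TalaR-DF libraries. TalaR-DF cells were at least 6.58-fold lower than parental cells (adjusted p = 0.00197) and TalaR-M cells at least 6.25-fold higher than TalaR-DF (adjusted p = 0.004). Against parental, TalaR-M gave a log2 fold change of -0.07 (SE 0.39) with all libraries and -0.61 without replicate 2 (adjusted p = 0.00125), neither called. Thus CST1 was near or at the limit in both resistant groups and CST4 only in the drug-free cells. Their canonical transcripts are 94.7% identical over 749 aligned bases (GENCODE 44), and CST2, at 0 in all libraries, is 91.3% identical to CST1 and 92.1% to CST4, so the assignment of reads among these genes is uncertain.

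CST7 was the only member called higher in both resistant groups. It encodes cystatin F, an inhibitor of cathepsin C that is best known from lysosomes of cytotoxic lymphocytes. It was 0, 0.45 and 0 in parental, 2.66, 3.33 and 2.51 in TalaR-M and 1.46, 0.97 and 1.29 in TalaR-DF, on 75 to 98 reads in TalaR-M and 26 to 39 in TalaR-DF. The 3 groups did not overlap. TalaR-M was higher than parental by a log2 fold change of 2.68 (SE 0.25, adjusted p = 0.000133), and higher than TalaR-DF by 1.59 (adjusted p = 0.00523, and 0.0532 with a pseudocount of 1 CPM). TalaR-DF exceeded parental by 1.09 (adjusted p = 0.018), a call that was lost when any of parental replicates 1 and 3 or TalaR-DF replicates 1 and 3 was left out (log2 fold change 0.98 to 1.07, adjusted p 0.069 to 0.0761) and under median-ratio scaling (adjusted p = 0.0521). The leukocyte marker PTPRC read 1.79, 0 and 0.83 in TalaR-M and 0 in all parental libraries. CD14, the only leukocyte marker above the limit in parental libraries, read 3.82, 3.48 and 3.88 there and 1.24, 2.83 and 1.23 in TalaR-M. The lower summed leukocyte level in TalaR-M, given above, thus came from CD14 alone. The part of these markers in the CST7 result was not tested.

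CST3 encodes cystatin C, the ubiquitous secreted cystatin. It was 8.02, 7.91 and 8.01 in parental, 7.91, 9.89 and 7.71 in TalaR-M and 7.47, 7.14 and 7.17 in TalaR-DF, with log2 fold changes of 0.52 (SE 0.50) and -0.72 (SE 0.50) against parental, neither called. Without TalaR-M replicate 2 the first was -0.17, and the second kept its value with an SE of 0.087 and an adjusted p of 2.27e-05. TalaR-M against TalaR-DF gave 1.24 with all libraries and 0.55 without that one. CSTB, the intracellular stefin B, was 6.90, 6.91 and 6.95 in parental, 6.57, 7.32 and 6.33 in TalaR-M and 6.62, 6.37 and 6.48 in TalaR-DF libraries. Against parental it gave -0.18 in TalaR-M, -0.47 without replicate 2 (adjusted p = 0.000586) and -0.43 in TalaR-DF, none called. CST1, CST3, CST4 and CST7 lie in a cystatin cluster on chromosome 20 that also holds CST2, CST5, CST8, CST9 and CST11. These latter genes were at 0 in all libraries, as were CST6 and CSTA, and the 20 tested genes around the cluster had a median log2 fold change of -0.09 in TalaR-M and -0.03 in TalaR-DF against parental.

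Per length, SERPINA3 and CST1 lost their place among the inhibitors, while the other members named here kept their parental order in TalaR-DF. In parental cells high members by CPM per kilobase of canonical transcript were CST3 (318.5), CSTB (206.2), SERPINH1 (166.1), SERPINF1 (124.4), SERPINA3 (75.4), SERPINB6 (74.3) and CST1 (63.6). The SD over the 3 parental libraries was 0.03 to 0.06 log2 CPM for the first 4 of them. In TalaR-DF cells CST3 (194.5), CSTB (153.2) and SERPINH1 (127.9) were still first, followed by SERPINF1 (67.0) and SERPINB6 (58.0). SERPINA3 stood at 17.5 there, and CST1 was at the lower limit of the table, so that it has no measured level. In TalaR-M cells CST3 (587.7), CSTB (190.4) and SERPINH1 (185.8) were first as well, and the CST3 mean includes the high value of replicate 2. SERPINA3 stood at 3.06 and CST1 at 2.24 in TalaR-M, so both were below their parental place in either resistant group.

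Between the resistant groups, 3 members were called higher in TalaR-M than in TalaR-DF (CST4, CST7 and SERPINA1) and 2 lower (SERPINA3 and SERPINB2), where 6.93% of all genes were called, 5.29% higher and 1.64% lower. With median-ratio scaling the split was 4 higher and 1 lower. The groups did not overlap for 10 of 20 members, and for 40.8% of all genes. Without TalaR-M replicate 2 the counts were again 3 and 2, but with SERPINE2 in place of SERPINA1.

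The proteases and receptors that these inhibitors act on were examined as lists, to be read against the shares of all genes called, 5.53% higher and 7.72% lower in TalaR-M and 2.25% higher and 7.49% lower in TalaR-DF against parental. A few list genes were above the limit in a single group and so had to differ. Of these CTSS was called, while F5, VTN, TMPRSS3, SLPI and SPINK5 were not. Of 26 genes of plasminogen activation, coagulation and serpin receptors, 19 were tested, and against parental cells 1 was called higher and 4 lower in TalaR-M (3 and 4 without replicate 2) and 0 higher and 6 lower in TalaR-DF. The median log2 fold changes of the list were -0.38 and -0.59. PLAU, the urokinase gene, was 4.48, 4.42 and 4.58 in parental, 5.75, 5.94 and 5.75 in TalaR-M and 4.47, 4.48 and 4.47 in TalaR-DF. It was called higher in TalaR-M than in parental (log2 fold change 1.32, SE 0.12, adjusted p = 0.000133), while TalaR-DF gave -0.02 (SE 0.12). PLAU was thus higher in the drug-maintained cells than in both other groups. PLAT, tissue plasminogen activator, was 6.31, 6.26 and 6.28 in parental, 6.71, 5.76 and 6.50 in TalaR-M and 4.19, 4.36 and 4.14 in TalaR-DF libraries, and was called lower in TalaR-DF (-2.05, adjusted p = 0.000503), with TalaR-M above TalaR-DF by 2.10 (adjusted p = 0.000871).

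PLAUR, the urokinase receptor, was not called (-0.37 in TalaR-M, -0.60 without replicate 2, and -0.62 in TalaR-DF against parental). LRP1, the endocytic receptor that clears serpin and protease complexes, was 7.33, 7.18 and 7.31 in parental, 5.28, 3.89 and 5.47 in TalaR-M and 3.75, 4.49 and 3.85 in TalaR-DF, and was lower in both (-2.39, adjusted p = 0.00349, and -3.24, adjusted p = 0.000831). TalaR-M was above TalaR-DF by 0.85, not called, and by 1.35, called, without TalaR-M replicate 2. VLDLR, a related receptor, was 2.48, 2.61 and 2.34 in parental, 3.90, 2.80 and 3.61 in TalaR-M and 1.23, 1.39 and 1.46 in TalaR-DF libraries, called lower in TalaR-DF (-1.12) and not in TalaR-M (0.96, but called higher at 1.28 without replicate 2), and higher in TalaR-M than in TalaR-DF (2.08, adjusted p = 0.00192). F2RL1, the receptor cut by trypsin-like proteases, was called lower in TalaR-M (-1.89, adjusted p = 0.00358).

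The next list held 29 other serine protease genes, among them trypsin-like proteases, granzymes, neutrophil proteases such as ELANE and proprotein convertases such as FURIN. Of these, 11 were tested, with 2 higher and 5 lower in TalaR-M (2 and 3 without replicate 2) and 1 higher and 3 lower in TalaR-DF against parental, and medians of -0.52 and -0.52. PRSS23, a secreted serine protease, was 5.97, 5.91 and 5.97 in parental, 8.08, 7.58 and 7.96 in TalaR-M and 5.93, 5.89 and 6.03 in TalaR-DF, higher in TalaR-M (1.92, adjusted p = 4.15e-05) with 0.00 (SE 0.15) in TalaR-DF. HTRA1, a secreted protease of matrix proteins, was lower in both (-2.11 and -2.26, adjusted p = 3.58e-05 and 3.26e-05), and so was PRSS22 (-3.18 and -2.17). PRSS12 was higher in both (1.57 and 1.77), and TMPRSS2, a transmembrane protease of epithelia, was higher in TalaR-M than in TalaR-DF (1.13, adjusted p = 0.0298), where it was at 0.

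Of 12 genes for cysteine cathepsins and legumain, the targets of cystatins, 11 were tested. Against parental, 3 were called higher and 2 lower in TalaR-M (2 and 2 without replicate 2) and 1 higher and 2 lower in TalaR-DF, CTSS being 1 of the lower calls in each, with medians of -0.33 and -0.70. CTSV, cathepsin V, was 0 in all parental libraries, 3.45, 3.47 and 3.50 in TalaR-M and 2.51, 2.39 and 2.31 in TalaR-DF, so that both resistant groups were called higher, and TalaR-M also above TalaR-DF (1.07, adjusted p = 0.00086). CTSH was 0.38, 0.53 and 1.03 in parental, 2.82, 3.12 and 2.32 in TalaR-M and 1.31, 1.17 and 1.33 in TalaR-DF libraries, called higher in TalaR-M (2.11, adjusted p = 0.000447). CTSS was 1.45, 1.33 and 1.60 in parental and 0 in all resistant libraries, and CTSK was called lower in TalaR-M (-1.30). CTSO was called lower in TalaR-DF than in parental (-2.22) and, without TalaR-M replicate 2 only, than in TalaR-M (1.23 with it and 1.71 without). CTSB and CTSL, widely expressed lysosomal proteases, gave -0.33 and -0.79 in TalaR-M and -0.70 and -0.84 in TalaR-DF, none called.

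**Figure D4:**
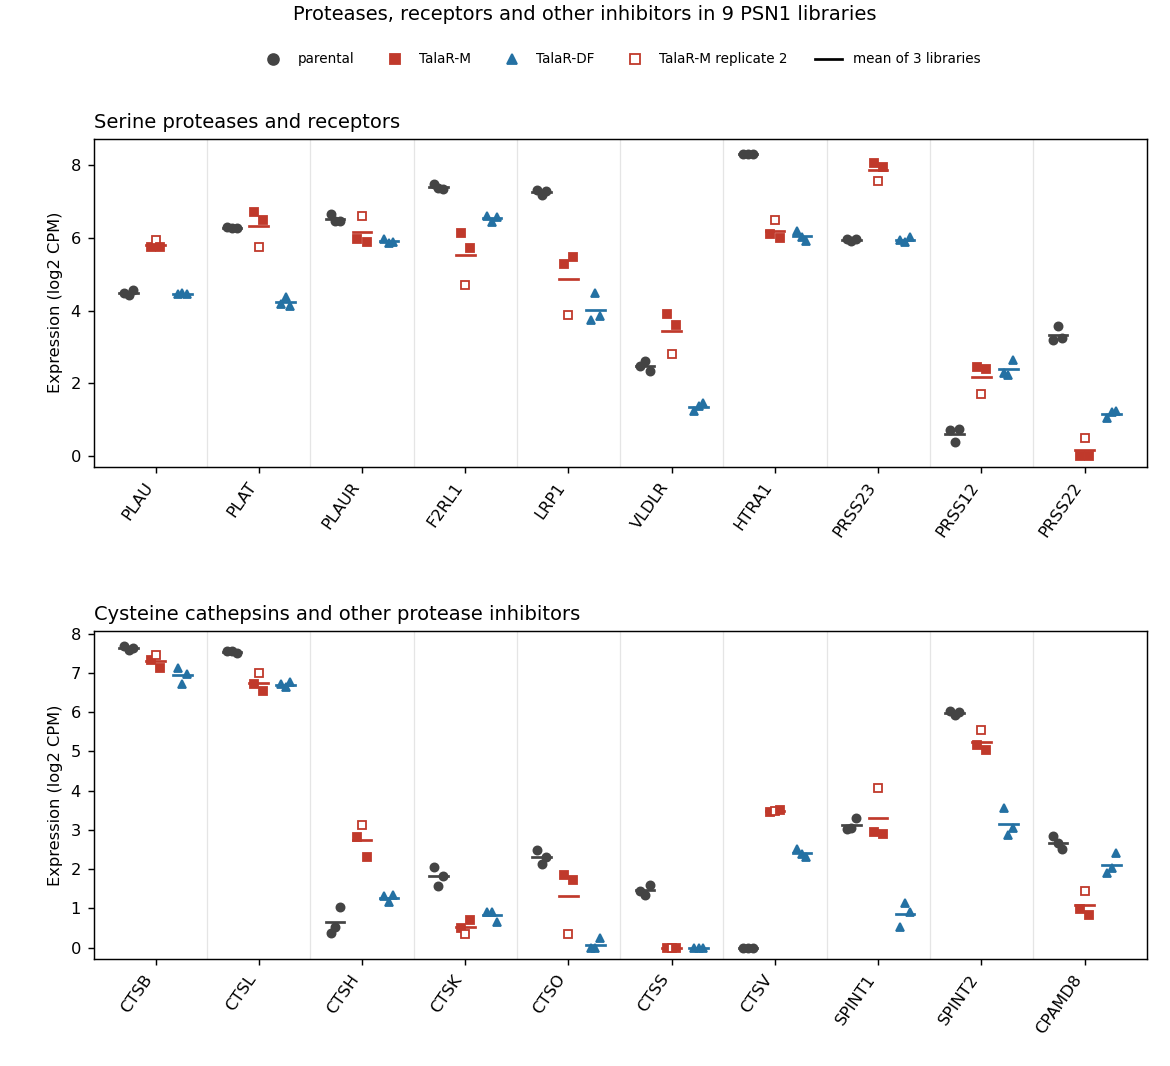
Expression (log2 CPM) of named serine proteases and receptors (upper panel) and of cysteine cathepsins and other protease inhibitors (lower panel) in the 9 libraries, 1 point per library and a bar at the mean of 3 for each group. PLAU and PRSS23 lie higher in TalaR-M than in both other groups, LRP1 and HTRA1 lie lower in both resistant groups, and CTSV is at 0 in parental cells only.

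Of 38 other protease inhibitor genes, 11 were tested, with 0 higher and 1 lower in TalaR-M and 0 higher and 2 lower in TalaR-DF against parental, and medians of -0.29 and -0.54. These are few calls, and 1 of 11 is near the share of all genes. SPINT2, a Kunitz inhibitor of membrane serine proteases, was 6.02, 5.94 and 6.01 in parental, 5.16, 5.56 and 5.05 in TalaR-M and 3.56, 2.88 and 3.04 in TalaR-DF. It was called lower in TalaR-DF (-2.83, adjusted p = 4.9e-05), and its relative SPINT1 as well (-2.27, adjusted p = 0.00173), each also lower there than in TalaR-M. CPAMD8, of the alpha-2-macroglobulin family, was lower in TalaR-M (-1.58, adjusted p = 0.00106) and lower there than in TalaR-DF. Between the resistant groups, the 4 lists had 4 higher and 0 lower (6 and 1 without replicate 2), 2 and 1, 2 and 0 (3 and 0), and 2 and 1 called, in the order given, where 5.29% of all genes were called higher and 1.64% lower. Their medians were 0.25, 0.15 (0 without replicate 2), 0.52 and 0.25.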

How the data were processed

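RNAseq was made by the authors from stranded poly(A) libraries with paired reads. The deposited values are log2 CPM with a prior count, floored at 0, for protein-coding genes, and the unit was read from the values. Reads were mapped to hg38 per the submitters' processing notes. The aligner, counter and annotation are not given in the sources used here. The columns named maintain were read as TalaR-M and those named withdraw as TalaR-DF. Whole reads were recovered for 100% of values under 50 CPM (tolerance 0.05 reads), for depth only. A count test was not run, since reads at or below 1 CPM cannot be recovered.

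Log2 values were fitted with limma 3.58.1 (R 4.3.3) in 1 model of 3 groups with a mean-variance trend and Benjamini-Hochberg adjustment over the 12471 genes above 0 in at least 3 libraries. The procedure was tested on simulated data in which every library had the same spread. That test does not cover a library that stands apart, as TalaR-M replicate 2 did. An exact permutation test of 3 against 3 libraries cannot give a two-sided p under 0.1 and was not used. Positions and canonical transcripts came from GENCODE 44, with all 46 members matched by symbol and a length for 93.9% of the genes tested. Figures were drawn with matplotlib 3.10.9 (Python 3.11.15).

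The members and lists were chosen with earlier results of these data known. All members above the limit in 3 libraries were named, except 1 that is in the counts and not reported here. From each list, the up to 2 genes with the largest fold in each direction and comparison were named, if called and without overlap, as well as PLAU, PLAT, PLAUR, LRP1, CTSB and CTSL. Alternatives were a pseudocount of 1 or 8 CPM, no filter or a minimum of 5 CPM, median-ratio scaling, no trend, a replicate block, fits of 2 groups, other thresholds and leaving out each library. The other samples of the series were not analysed here.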

Additional observations from a re-analysis of the deposited data

How the results depend on the processing

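Members called numbered 9, 11 and 5 for the comparisons of TalaR-M with parental, of TalaR-DF with parental and of both resistant groups. A pseudocount of 8 CPM shrinks log2 fold changes by construction and gave 5, 6 and 1, and the other alternatives without a library left out gave 7 to 10, 8 to 14 and 4 to 7. Leaving out 1 library gave 8 to 9, 9 to 11 and 4 to 5. A replicate block gave 9, 11 and 5. Deviations of same-numbered libraries correlated at -0.311 to 0.158, with 2 of 9 above 0.1. Those of differently numbered libraries correlated at -0.4 to 0.369, with 4 of 18 above 0.1. No pairing by replicate number was seen, but so few libraries per group cannot exclude it. Of the uncalled values, CST4 in TalaR-M against parental changed sign to 0.017 with a pseudocount of 8 CPM and to 0.036 with median-ratio scaling, SERPINB6 in that comparison to 0.050 with scaling, and SERPINF1 in TalaR-M against TalaR-DF to 0.026 with scaling. With 1 library left out, values that changed sign ranged, against parental in TalaR-M, from -0.17 to 0.92 for CST3, from -0.62 to 0.22 for CST4, from -0.47 to 0.027 for CSTB, from -0.57 to 0.27 for SERPINB6 and from -0.033 to 0.25 for SERPINB8. In TalaR-DF against parental SERPINB8 ranged from -0.35 to 0.0089, and in TalaR-M against TalaR-DF CSTB ranged from -0.038 to 0.46 and SERPINB6 from -0.21 to 0.63. The cause was not tested. Amounts under 1 CPM cannot be told from 0, which limits CST1, CST4, CST7, SERPINB2, SERPINF2 and SERPING1.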
